A study of Homo sapiens with 8 samples.

Results

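The 10 genes described here encode the Aurora kinases, the chromosomal passenger complex around Aurora B, the Aurora A activator TPX2, the shugoshins and haspin. They were taken by symbol from a table of 25365 rows, where all 10 were found: AURKA, AURKB, AURKC, INCENP, BIRC5, CDCA8, TPX2, SGOL1, SGOL2 and GSG2. The last 3 carry older symbols, which are now SGO1, SGO2 and HASPIN. Of the 10, 9 had a mean of at least 1 scaled FPKM (the deposited length- and depth-normalised fragment value, rescaled between libraries) and were tested, while AURKC lay below that level.

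The cells were NCI-H82, a small cell lung cancer line without functional pRB, the retinoblastoma protein, and their total RNA was sequenced. All cells in the study carried a doxycycline-inducible RB1 transgene (pTripZ RB1), and the sources used here do not say whether they were a clone or a pool. The 4 groups held 2 libraries each. The pRB+ AZD2811 cells had doxycycline at 0.5 µg/mL for 96 h and AZD2811, an Aurora B inhibitor named AZD1152 in the sample titles, at 32 nM for the last 48 h. The pRB+ control cells had the same doxycycline and vehicle. The pRB- AZD2811 cells had no doxycycline and the same inhibitor, and the pRB- control cells had no doxycycline and vehicle. Cells of all 4 groups were cultured for 96 h, with inhibitor or vehicle for 48 h. Doxycycline itself differed with pRB, so the pRB comparison cannot tell them apart. The replicates are called biological in the series text, with no word on separate cultures, so the spread behind each p-value may be technical.

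Aurora B works in the passenger complex with INCENP, which binds and activates the kinase, and with survivin (BIRC5) and borealin (CDCA8), which bring the complex to centromeres, where it corrects faulty attachments of chromosomes to the spindle. Haspin and the kinase BUB1 write the histone marks that survivin and the shugoshins read at centromeres, and SGO1 shields centromeric cohesin until anaphase. Aurora A acts on spindle poles and spindle microtubules and is switched on by TPX2. These genes are transcribed mostly late in the cell cycle, a programme that pRB and related pocket proteins are known to repress through E2F and the MuvB core complex. AURKC is expressed mainly in germ cells.

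The induced gene RB1 averaged 7.24 ± 0.596 scaled FPKM in pRB+ libraries and 0.891 ± 0.0694 in pRB- libraries (SD, n = 4 each), with no overlap, so all 8 libraries matched their pRB label; no transcript checks the AZD2811 label. The mapped depth, estimated from steps in low values, was between 23300000 and 33600000 fragments per library. RMRP, an RNA without a poly(A) tail, lay between 5790 and 14000 scaled FPKM in 3 libraries (replicate 1 of both AZD2811 groups and the second pRB+ control library) and between 21.2 and 165 in the other 5. These 3 also had the smallest scaling factors, 0.455 to 0.771 against 1.28 to 1.33. The neuroendocrine markers NEUROD1, SYP and CHGA averaged 92.4, 66.9 and 56.8 scaled FPKM over the 8 libraries. The summed level of 5 germ cell markers was at most 0.134 in pRB+ and 0.232 in pRB- libraries.

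The levels of the 10 genes spanned a wide range and kept nearly the same order in every library. Averaged over the 8 libraries, AURKB was highest at 105 scaled FPKM, above 95.9% of tested genes. TPX2 followed at 65.9, BIRC5 at 53.8, CDCA8 at 41.3, AURKA at 39.4 and INCENP at 20.8 scaled FPKM. SGOL2, GSG2 and SGOL1 were lower, at 7.91, 7.11 and 5.35, and AURKC stood at 0.289. AURKB exceeded TPX2 in 8 of 8 libraries, by 0.66 ± 0.07 on the log2 scale (SD), and their ranges did not overlap. CDCA8 and AURKA were close, with CDCA8 higher in 8 of 8 libraries by only 0.07 ± 0.03, and SGOL2 exceeded GSG2 in 6 of 8, so these neighbours were the least separated. The INCENP message was 20.5% ± 1.22 of the AURKB level in pRB+ libraries and 19.6% ± 2.92 in pRB- libraries (SD, n = 4 each), although the proteins assemble in one complex.

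**Figure D1:**
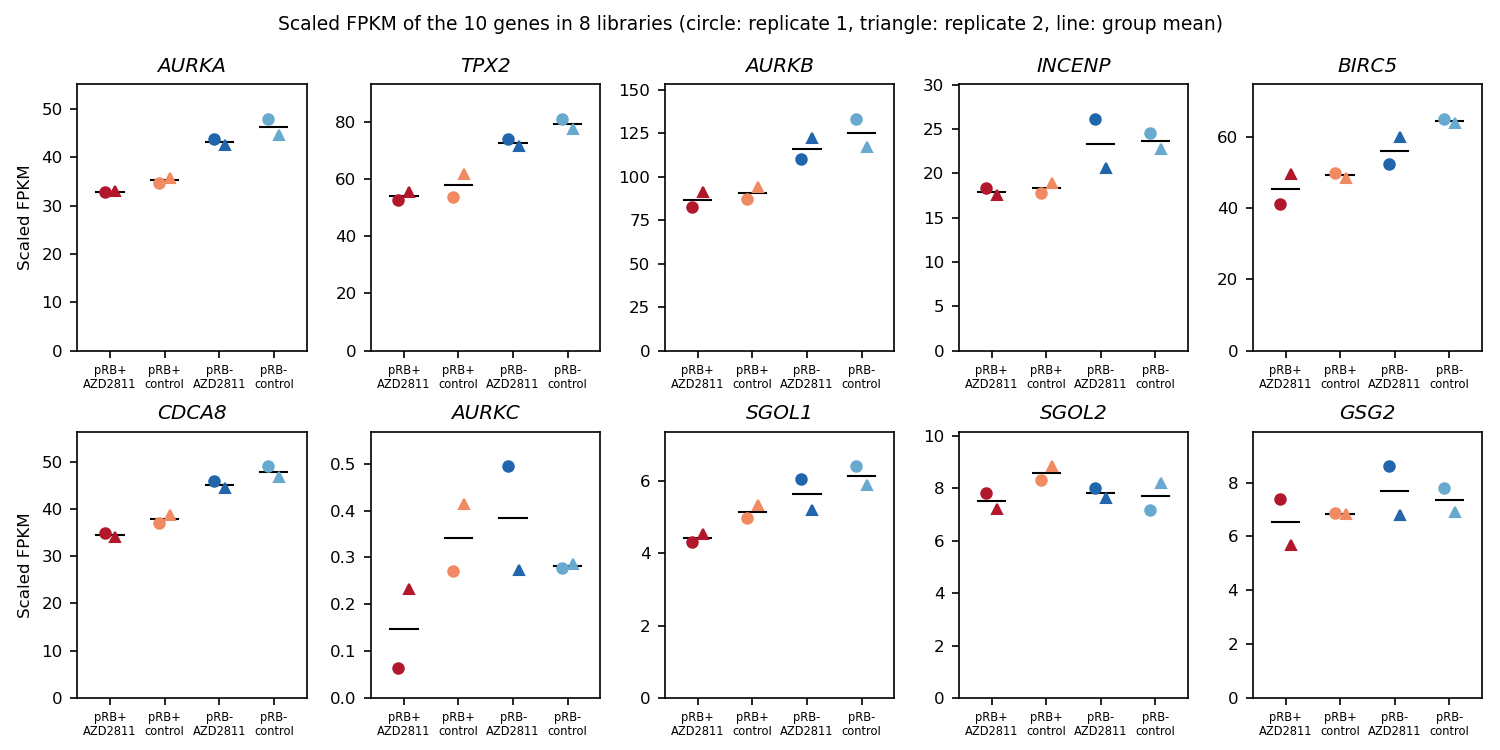
Scaled FPKM (vertical axes, each from 0) of the 10 genes in the 4 groups; circles are replicate 1, triangles replicate 2 and lines group means of 2 libraries. The pRB+ libraries lie below all pRB- libraries for AURKA, TPX2, AURKB, INCENP, BIRC5 and CDCA8, while SGOL1, SGOL2, GSG2 and AURKC overlap.

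With pRB 7 genes fell: Aurora A with its activator, all 4 subunits of the Aurora B complex and SGOL1. SGOL2 and GSG2 did not pass, and no gene of the group rose. The fit compared the 4 pRB+ with the 4 pRB- libraries, held AZD2811 as a second term, and called a gene at an adjusted p under 0.05 over 12013 genes. Of the 9 tested genes 7 were called lower and 0 higher, while 5.81% of all genes were lower and 5.34% higher. In 8 of the 9 the difference was below 0, against 52% of all genes. Their median log2 difference was -0.35, against -0.01 over all tested genes. In bulk RNA, fewer cells in mitosis and less of each message per cell cannot be told apart. The mean log2 level of 40 other mitotic genes ran from 4.79 to 4.92 in pRB+ libraries and from 5.11 to 5.22 in pRB- libraries.

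Among the Aurora A genes, AURKA measured 32.8 and 33.0 scaled FPKM in pRB+ AZD2811 and 34.8 and 35.8 in pRB+ control libraries. In pRB- AZD2811 libraries AURKA measured 43.9 and 42.6, and in pRB- control libraries 47.9 and 44.6. All pRB+ values lay below all pRB- values, and the gap between the groups was wider than the spread within either. AURKA fell by 0.38 ± 0.04 on the log2 scale of scaled FPKM plus 1 (SE; limma, adjusted p = 0.0238), with a mean 23.8% below that of pRB- libraries. TPX2 measured 52.5 and 55.3 scaled FPKM in pRB+ AZD2811 and 53.8 and 61.8 in pRB+ control libraries, against 73.9 and 71.4 in pRB- AZD2811 and 80.8 and 77.5 in pRB- control libraries. TPX2, which also nucleates spindle microtubules, fell by 0.44 ± 0.06 (SE; limma, adjusted p = 0.0238), and its groups did not overlap.

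AURKB, the gene of the kinase that AZD2811 inhibits, measured 82.7 and 91.0 scaled FPKM in pRB+ AZD2811 and 86.9 and 94.1 in pRB+ control libraries. In pRB- AZD2811 libraries AURKB measured 110 and 122, and in pRB- control libraries 133 and 117. The 4 pRB+ libraries were the 4 lowest. AURKB fell by 0.44 ± 0.07 on the log2 scale (SE; limma, adjusted p = 0.0247), with a 95% interval from -0.59 to -0.28. Its adjusted p ranged from 0.00677 to 1 over 17 alternatives, the highest with FPKM as deposited.

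Of the other passenger genes, INCENP, the scaffold, measured 18.3 and 17.5 scaled FPKM in pRB+ AZD2811 and 17.8 and 18.9 in pRB+ control libraries, against 26.1 and 20.6 in pRB- AZD2811 and 24.6 and 22.7 in pRB- control libraries. The pRB+ values of INCENP were tightly grouped and the pRB- values spread more widely, without overlap. INCENP fell by 0.35 ± 0.08 (SE; limma, adjusted p = 0.0334). BIRC5, whose product survivin also limits cell death, measured 41.2 and 49.6 scaled FPKM in pRB+ AZD2811 and 50.0 and 48.4 in pRB+ control libraries, against 52.3 and 60.0 in pRB- AZD2811 and 65.0 and 64.0 in pRB- control libraries. The groups of BIRC5 came close, at 50.0 for the highest pRB+ and 52.3 for the lowest pRB- library, but did not overlap. BIRC5 fell by 0.34 ± 0.07 (SE; limma, adjusted p = 0.0325). CDCA8 measured 34.9 and 34.1 scaled FPKM in pRB+ AZD2811 and 37.1 and 38.7 in pRB+ control libraries, against 45.9 and 44.4 in pRB- AZD2811 and 49.0 and 46.7 in pRB- control libraries. CDCA8 fell by 0.35 ± 0.04 (SE; limma, adjusted p = 0.0238), with one of the smallest errors in the group.

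Of the shugoshins, SGOL1 passed and SGOL2 did not, and the difference between them was not tested. SGOL1 measured 4.32 and 4.55 scaled FPKM in pRB+ AZD2811 and 4.98 and 5.34 in pRB+ control libraries, against 6.07 and 5.21 in pRB- AZD2811 and 6.41 and 5.90 in pRB- control libraries. Only the highest pRB+ and the lowest pRB- value of SGOL1 crossed, and SGOL1 fell by 0.25 ± 0.06 (SE; limma, adjusted p = 0.0415). SGOL2 measured 7.84 and 7.22 scaled FPKM in pRB+ AZD2811 and 8.34 and 8.84 in pRB+ control libraries, against 8.01 and 7.62 in pRB- AZD2811 and 7.18 and 8.22 in pRB- control libraries. Over both AZD2811 states these ranges overlapped, although both pRB+ control values lay above both pRB- control values. SGOL2, whose product recruits the depolymerase MCAK to centromeres and protects cohesin in meiosis, had a log2 difference of 0.05 ± 0.07 (SE; limma, adjusted p = 0.652). The 95% interval of SGOL2 ran from -0.11 to 0.20. GSG2, the haspin gene, averaged 6.69 ± 0.713 in pRB+ and 7.52 ± 0.851 in pRB- libraries (SD, n = 4 each), a log2 difference of -0.15 ± 0.10 (SE; limma, adjusted p = 0.33). Its interval, from -0.37 to 0.08, includes falls as large as those of INCENP and CDCA8.

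In 6 of the 9 tested genes the 4 pRB+ libraries lay below the 4 pRB- libraries, against 11.2% of all tested genes. Over 17 alternatives AURKA lay between -0.40 and -0.36, INCENP between -0.42 and -0.29 and GSG2 between -0.20 and -0.07, while SGOL2 lay between -0.01 (without pRB- control replicate 1) and 0.09. The calls depended on the setting for the whole table: 0 of 9 genes passed in the fit of 4 group means (0.0333% of all genes), with FPKM as deposited (1.18%) or in the 5 libraries low in RMRP (0.00832%). The count was 0 without replicate 1 of any of the 4 groups, each left out alone, and 0 without the second pRB- control library, where 0.00832% to 0.0166% of all genes passed. Without the second pRB+ control library it was 4 (AURKA, TPX2, AURKB and CDCA8), against 3.9% of all genes. In each of these 6 cases 7 of 9 genes were lower at an unadjusted p under 0.05, against 12% to 17.1% of all genes.

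**Figure D2:**
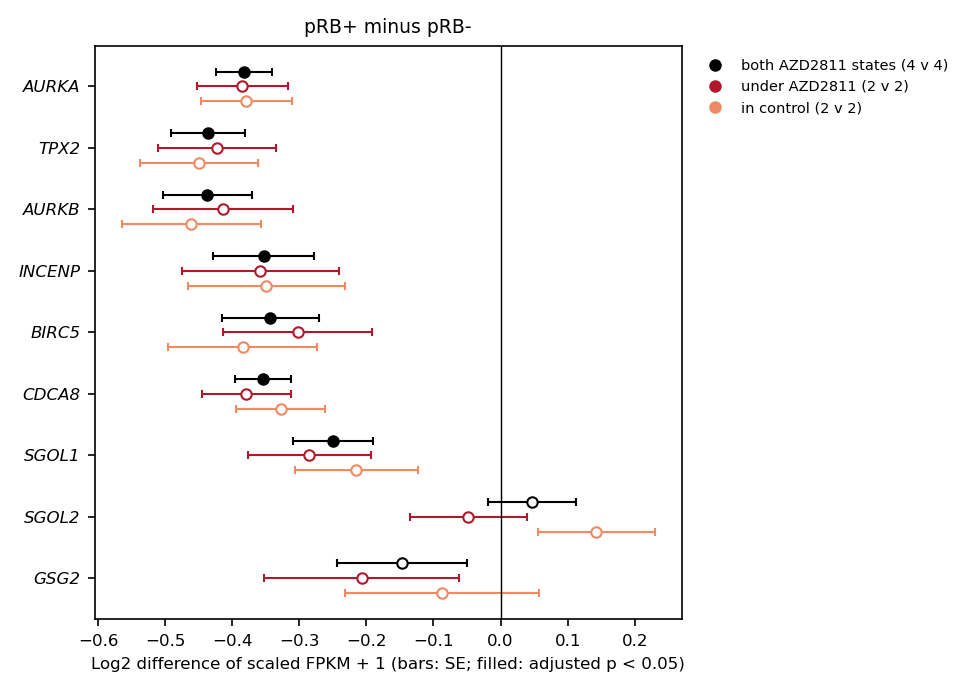
Log2 difference of scaled FPKM plus 1, pRB+ minus pRB- (horizontal axis), with its standard error, for the 9 tested genes over both AZD2811 states (4 against 4 libraries), under AZD2811 and in control cells (2 against 2 each). Filled points passed an adjusted p of 0.05; AURKB is at -0.44, -0.41 and -0.46, and SGOL2 straddles 0.

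The log2 difference was also taken within each library type, as a description. Among the 5 libraries low in RMRP (2 pRB+ against 3 pRB-), the log2 difference was -0.40 for AURKA, -0.48 for TPX2, -0.47 for AURKB, -0.34 for INCENP, -0.33 for BIRC5, -0.38 for CDCA8 and -0.24 for SGOL1. Among the 3 rich libraries (2 pRB+ against 1 pRB-), the differences were -0.35, -0.37, -0.32, -0.47, -0.22, -0.31 and -0.28 for the same genes in that order. The pRB+ libraries lay below the pRB- libraries for 7 of the 9 tested genes in the low type, against 24.8% of all genes, and for 8 of the 9 in the rich type, against 36.7%. With 1 pRB- library the rich type has no spread on that side.

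No difference of the pRB effect between cells with and without the inhibitor was detectable at 2 libraries per group. Under AZD2811, pRB+ against pRB- libraries gave -0.39 ± 0.07 for AURKA, -0.42 ± 0.09 for TPX2, -0.41 ± 0.10 for AURKB and -0.38 ± 0.07 for CDCA8 (log2, SE, n = 2 per group). In control cells these 4 genes stood at -0.38 ± 0.07, -0.45 ± 0.09, -0.46 ± 0.10 and -0.33 ± 0.07. SGOL2 stood at -0.05 ± 0.09 under AZD2811 and 0.14 ± 0.09 in control cells, and GSG2 at -0.21 ± 0.14 and -0.09 ± 0.14. At 2 against 2 libraries 0 of the 9 genes passed in either state (limma), where 0.00832% and 0.0666% of all genes did. At an unadjusted p under 0.05, 7 of the 9 were lower under AZD2811 and 6 in control cells, against 6.46% and 10.1% of all genes. The pRB+ pair lay below the pRB- pair for 7 of the 9 under AZD2811, against 20.9% of all genes, and for 8 of the 9 in control cells, against 31.1%. With FPKM as deposited the median of all genes was 0.26 under AZD2811 and -0.33 in control cells, and the 9 genes lay between -0.09 and 0.23 and between -0.82 and -0.18; BIRC5 (0.03), GSG2 (0.07) and SGOL2 (0.23) were then above 0 under AZD2811, and SGOL2 (-0.18) below 0 in control cells. The interaction, which tests the difference between both states, passed for 0 of the 9 genes (limma; 0.0166% of all genes). At an unadjusted p under 0.05 it held 0 of the 9 and 0.641% of all genes. For AURKB the interaction was 0.05 ± 0.15, and the largest was that of SGOL2 at -0.19 ± 0.12 (adjusted p = 1 for each).

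Read against other mitotic genes, SGOL2 alone of the 9 tested genes was called. For each library the mean log2 level of 40 mitotic genes outside the group was subtracted, and all 12013 genes were fitted again. On that relative scale SGOL2 was higher in pRB+ libraries by 0.38 ± 0.07 (SE; limma, adjusted p = 0.00253), and this call held in all 16 alternatives, with values from 0.32 to 0.42. Because the mitotic genes themselves were lower in pRB+ libraries, 70.9% of all tested genes were called higher on this scale and 0.516% lower, against 1 and 0 of the 9. The median of all tested genes on this scale was 0.32, so a gene without a pRB difference also lay above 0. The other 8 genes did not pass: AURKB was at -0.11 ± 0.07, TPX2 at -0.11 ± 0.05, AURKA at -0.05 ± 0.04, CDCA8 at -0.02 ± 0.04, INCENP at -0.02 ± 0.07, BIRC5 at -0.01 ± 0.08 and SGOL1 at 0.08 ± 0.06, with adjusted p from 0.0836 to 0.882. GSG2, at 0.18 ± 0.10 (adjusted p = 0.127), passed with a replicate block (0.0331) and without pRB+ AZD2811 replicate 2 (0.0311). As a share of the AURKB level, SGOL2 was 9.10% ± 0.785 in pRB+ libraries and 6.48% ± 0.841 in pRB- libraries (SD, n = 4 each), whereas TPX2 was 63.0% ± 2.13 and 63.1% ± 4.15. AURKB itself fell with pRB, so this share rises for any gene that did not fall, and the levels of SGOL2 itself overlapped.

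**Figure D3:**
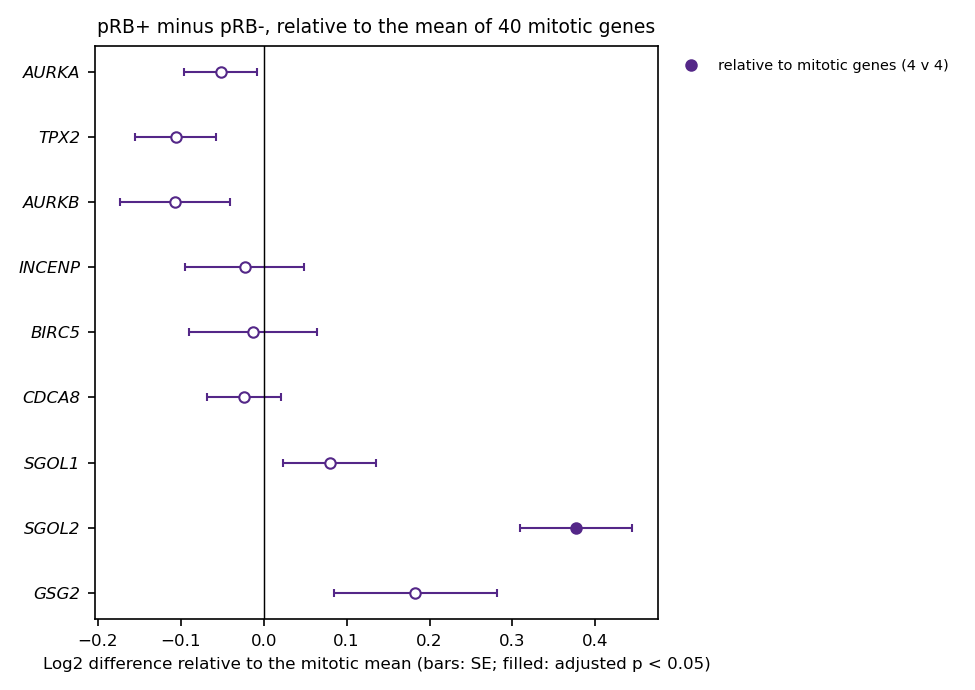
Log2 difference, pRB+ minus pRB- (4 against 4 libraries), after subtracting each library's mean over 40 mitotic genes; bars are standard errors and the filled point passed an adjusted p of 0.05. SGOL2 lies at 0.38 and the other 8 genes between -0.11 and 0.18. The median of all tested genes, not drawn, was 0.32.

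Promoter sequences are shown for 3 genes: CDCA8 and INCENP, which fell, and AURKC, the germ cell gene. They are the 250 bases before the start, from RefSeq (GRCh38.p14, not the hg19 build named for the deposited values). Letters in capitals are matches on either strand to CCAAT, bound by NF-Y, or to the cell cycle homology region (CHR; TTTGAA or its variant TTTAAA or its variant TTCGAA or its variant CTTGAA), which MuvB complexes bind.
CDCA8, chr1:37692266-37692515, + strand: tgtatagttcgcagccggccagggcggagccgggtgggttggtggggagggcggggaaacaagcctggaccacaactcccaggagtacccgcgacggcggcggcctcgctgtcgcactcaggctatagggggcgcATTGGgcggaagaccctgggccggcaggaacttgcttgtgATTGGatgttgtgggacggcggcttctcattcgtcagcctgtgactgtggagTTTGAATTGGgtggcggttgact
INCENP, chr11:62123761-62124010, + strand: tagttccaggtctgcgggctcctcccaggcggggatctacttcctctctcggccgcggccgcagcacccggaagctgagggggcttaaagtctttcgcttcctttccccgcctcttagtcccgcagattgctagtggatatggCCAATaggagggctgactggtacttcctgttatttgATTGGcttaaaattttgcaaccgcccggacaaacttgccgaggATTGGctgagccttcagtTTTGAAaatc
AURKC, chr19:57230773-57231022, + strand: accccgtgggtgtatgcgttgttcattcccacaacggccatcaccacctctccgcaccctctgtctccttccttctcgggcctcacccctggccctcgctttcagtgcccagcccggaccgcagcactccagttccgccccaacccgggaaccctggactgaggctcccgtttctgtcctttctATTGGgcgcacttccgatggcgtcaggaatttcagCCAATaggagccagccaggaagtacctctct

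In CDCA8 the TTTGAA began 23 bases before the start and overlapped by 1 base with a CCAAT match read on the other strand. In INCENP it began 10 bases before the start, below 3 CCAAT matches at 107, 71 and 28 bases. AURKC had CCAAT matches at 66 and 31 bases and no CHR letters. Of the 10 genes 6 had a promoter entry; the others are AURKA, BIRC5, TPX2 and GSG2. SGOL1 had CCAAT at 28 and TTCGAA at 3 bases before its start, SGOL2, which did not pass, also held both motifs, with CCAAT at 65 and TTTAAA at 30 bases before the second of its starts, and both entries of AURKB held a CCAAT match alone, at 153 and 129 bases. CHR letters occur in 32.2% and CCAAT in 34.6% of all 35116 promoter entries (300 bases, 50 of them after the start), so a match is common. The E2F letters TTTCCCGC, TTTGGCGC, TTTCGCGC and TTTGCCGC, in 3.31% of entries, occurred in 0 of the 6 genes.

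AZD2811 itself moved none of the 9 tested genes past the threshold. Over both pRB states, 4 against 4 libraries, 0 of the 9 passed (limma), as did 0% of all 12013 genes. All 9 had values below 0, against 53.2% of all genes, and 2 had an unadjusted p under 0.05, against 2.57% lower over all genes. In the 17 alternatives the values of 6 genes stayed below 0, while AURKB reached 0.01 in the libraries low in RMRP, INCENP reached 0.03 without pRB- AZD2811 replicate 2, and GSG2 was below 0 in 11 of 17. The 2 genes at an unadjusted p under 0.05 were CDCA8, at -0.11 ± 0.04, and SGOL1, at -0.14 ± 0.06 (SE; adjusted p = 0.965 for each). BIRC5 had the most negative value, -0.16 ± 0.07 (interval -0.33 to 0.01; -0.06 in the libraries low in RMRP), and AURKB, the gene of the drug target, stood at -0.08 ± 0.07 (interval -0.24 to 0.07), with 101 scaled FPKM in AZD2811 libraries and 108 in control libraries. The mitotic genes had a median of -0.09 in the same comparison and 35 of 40 were below 0, close to the median of -0.10 for the group.

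In pRB+ cells alone, AZD2811 against control gave 0 of 9 called (0.00832% of all genes) and values from -0.18 for SGOL1 to -0.04 for INCENP. In pRB- cells 0 of 9 were called (0.0333% of all genes), with values from -0.20 ± 0.11 for BIRC5 to 0.05 ± 0.14 for GSG2, and 0 of 9 had an unadjusted p under 0.05 in either state (0.683% of all genes in pRB+ and 2.7% in pRB- cells). BIRC5 measured 52.3 and 60.0 scaled FPKM in pRB- AZD2811 libraries, below 65.0 and 64.0 in pRB- control libraries, where the lower of the AZD2811 values comes from a library rich in RMRP. With FPKM as deposited the median of all genes over both pRB states was -0.34, against -0.01 after scaling, and the 9 genes lay between -0.55 and -0.36.

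**Figure D4:**
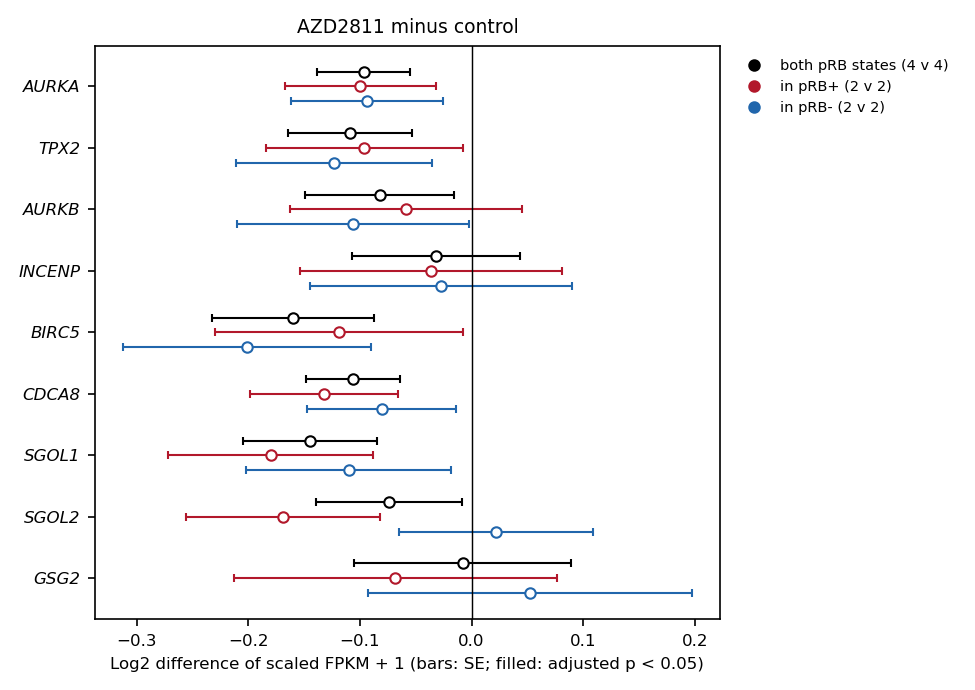
Log2 difference of scaled FPKM plus 1, AZD2811 minus control (horizontal axis), with its standard error, for the 9 tested genes over both pRB states (4 against 4 libraries), in pRB+ and in pRB- cells (2 against 2 each). Open points did not pass; over both states values run from -0.16 for BIRC5 to -0.01 for GSG2.

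Genes that work with this group were counted from lists, with examples chosen by size among those that passed in the comparison of 4 pRB+ and 4 pRB- libraries. Each count stands beside the 5.81% of all tested genes that fell and the 5.34% that rose. Of 13 tested Aurora A activators, partners and substrates 6 fell and 0 rose (median -0.20). NUSAP1, a microtubule bundling protein, averaged 86.4 scaled FPKM in pRB+ and 123 in pRB- libraries (-0.50 ± 0.06), and CDC25B, a phosphatase that Aurora A phosphorylates, stood at -0.32 ± 0.07. CKAP5, a microtubule polymerase, fell by 0.31 ± 0.05 and BORA, the cofactor through which Aurora A activates PLK1, by 0.26 ± 0.05. The importin gene KPNA2 (-0.20 ± 0.06), whose product holds TPX2, and RAN (-0.05 ± 0.09), whose product releases it, did not pass.

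Of 16 genes for recruitment and relocation of the passenger complex 7 fell and 0 rose (median -0.15), against 5.81% and 5.34% of all genes. KIF20A, the kinesin that carries the complex to the spindle midzone, averaged 32.2 scaled FPKM in pRB+ and 46.8 in pRB- libraries (-0.53 ± 0.08). CDK1 (-0.52 ± 0.07), PLK1 (-0.40 ± 0.05), BUB1 (-0.35 ± 0.05) and CCNB1 (-0.31 ± 0.05) fell as well. The ubiquitin ligase genes CUL3, KLHL9, KLHL13 and KLHL21, the deubiquitinase gene USP9X and the export receptor gene XPO1 did not pass, at values from -0.08 to 0.17. BUB1B, of the same list, did not pass either but was lower, at -0.21 ± 0.06 (SE; limma, adjusted p = 0.0595). Of 17 tested Aurora B substrates 6 fell and 1 rose (median -0.20): KIF2C, the depolymerase MCAK, averaged 43.3 scaled FPKM in pRB+ and 72.2 in pRB- libraries (-0.72 ± 0.09), CENPA, the centromeric histone, stood at -0.50 ± 0.07, RACGAP1 at -0.37 ± 0.05 and DSN1 at -0.30 ± 0.05. SKA3, a kinetochore protein, rose by 0.50 ± 0.10 (limma, adjusted p = 0.0328).

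Of 26 opposing phosphatase and cohesin protection genes 3 fell and 2 rose (median -0.04), against 5.81% and 5.34% of all genes. The cohesin subunits RAD21 (-0.41 ± 0.07) and STAG2 (-0.27 ± 0.06) and the phosphatase subunit PPP2R5C (-0.21 ± 0.05) fell, while the phosphatase subunit PPP6R3 (0.55 ± 0.11) and the cohesin acetyltransferase ESCO2 (0.50 ± 0.12) rose. The mitotic genes held 29 of 40 lower and 0 higher (median -0.31), led by KIF2C, PTTG1 (securin, -0.59 ± 0.09), KIF20A, CDK1 and CCNA2 (cyclin A2, -0.50 ± 0.05). Genes shared between lists are counted in each. In the 5 libraries low in RMRP 0 members of every list passed, and the medians were -0.20, -0.16, -0.23, -0.04 and -0.36 in the order given.

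**Figure D5:**
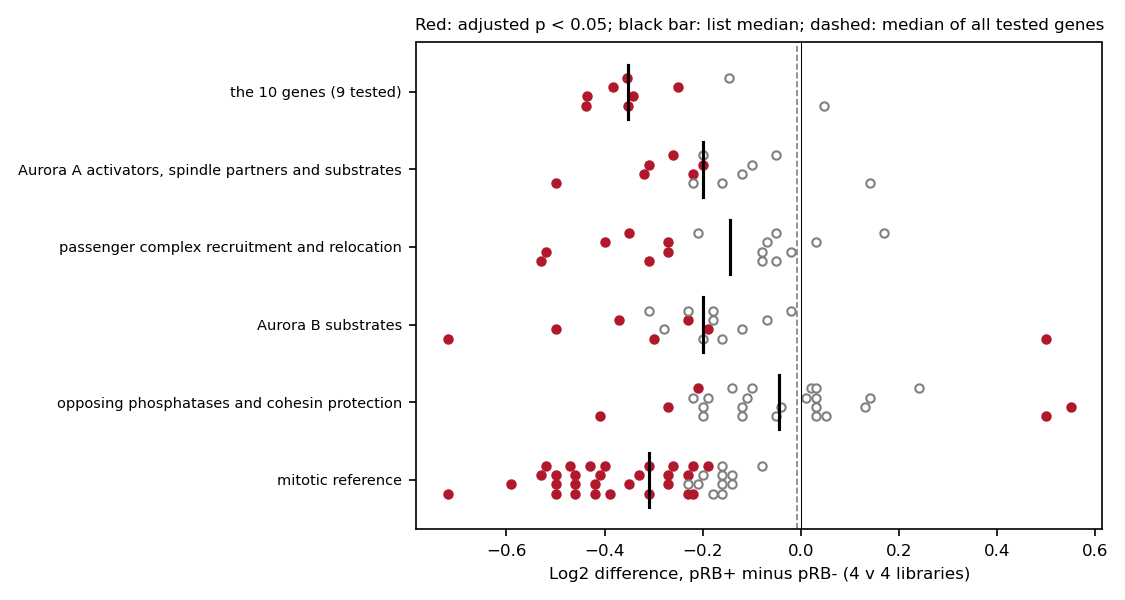
Log2 difference, pRB+ minus pRB- (4 against 4 libraries), of each tested member of the group and of 5 lists; red points passed an adjusted p of 0.05, black bars are list medians and the dashed line is the median of all tested genes at -0.01. The group's median of -0.35 and the mitotic median of -0.31 lie left of the other 4 lists.

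Over the 8 libraries, the genes most like AURKB among 11537 candidates were EBP, CCNB2, FEZ1, NAT6 and ADIPOR1, with Pearson r from 0.986 to 0.992. Those most like AURKA were CDCA8 (0.994), DIAPH3, KIF22, KNSTRN and CDC20 (0.989). These libraries share 4 groups and 1 cell line, so the values are a description. Within the group, AURKA and CDCA8 had a median r of 0.92 with the other 8 tested genes, while SGOL2 had r between -0.35 and 0.12 with each of them and GSG2 a median of 0.52.

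AURKC was near the limit of detection. It measured 0.0635 and 0.232 scaled FPKM in pRB+ AZD2811 and 0.270 and 0.414 in pRB+ control libraries, against 0.494 and 0.274 in pRB- AZD2811 and 0.278 and 0.285 in pRB- control libraries. For the longest coding transcript these values correspond to roughly 1 to 14 fragments per library, a counting error of 27.2% to 90.1%, and without the filter AURKC did not pass in the pRB comparison (-0.10 ± 0.09; limma, adjusted p = 0.56). For the other 9 genes the counting error was at most 7.73%, the largest for SGOL1. The 3 least abundant of these overlap a gene on the opposite strand, and whether the counting used strand is not given in the sources used here. SGOL1 overlaps SGOL1-AS1, which averaged 12.2 ± 1.89 scaled FPKM in pRB+ and 12.4 ± 2.00 in pRB- libraries, above SGOL1 itself. SGOL2 overlaps KCTD18, at 1.89 ± 0.28 in pRB+ and 1.69 ± 0.112 in pRB- libraries. GSG2 overlaps ITGAE, at 2.62 ± 0.206 in pRB+ and 2.42 ± 0.135 in pRB- libraries (SD, n = 4 each). The pseudogene AURKAPS1, a copy of AURKA, averaged 2.19 in pRB+ and 2.19 in pRB- libraries, far below AURKA.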

How the data were processed

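Per the labels' protocols, libraries were made from total RNA with a stranded total RNA kit. The authors deposited FPKM per gene and library; the submitters' processing notes name STAR 2.5.1b, Cufflinks 2.2.1 and hg19, and the annotation is not given in the sources used here. The 28 rows whose names had become dates were left out. Each library's FPKM were divided by a trimmed mean of its ratios to the geometric mean of all libraries (trimming 30% by ratio and 5% by level from both ends). The 12013 genes averaging 1 scaled FPKM or more were log2-transformed after adding 1 and fitted with limma 3.58.1 in R 4.3.3, using its intensity trend and Benjamini-Hochberg adjustment over all of them. This scale understates changes of low genes. All 8 libraries entered: additive doxycycline and AZD2811 terms for 4 against 4 libraries, and 4 group means for 2 against 2 and the interaction.

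The members, lists and fits were chosen with earlier results of these data known, and the lists have no test of their own. Depth was estimated from 1-fragment steps in genes with a single GENCODE 29 transcript of over 1500 nucleotides, less 200; 64.4% to 72.9% of low values came within 0.15 of a whole fragment, and counting errors cover counting only. On simulated data for the 12013 genes, 23.6% of genes changed by 0.3 (log2) and 64.0% of those changed by 0.5 were recovered for 4 against 4 libraries, and 0.8% and 19.2% for 2 against 2 in control cells. Each of the 5 runs changed 200 genes, against 1340 called in the pRB comparison. The simulated noise was drawn separately for each gene and library, without differences that many genes share, such as those between library types. For both reasons recovery in these data may differ. All 10 members, RB1, up to 5 called genes per list by size, and the 5 genes most correlated with AURKB and AURKA are named. KPNA2, RAN, BUB1B and 6 other recruitment genes that did not pass were added after their values were seen. Alternatives were median-ratio scaling, no scaling, no filter, a pseudocount of 0.1, no small RNA or histone genes, a library type term or only the low-RMRP type, a replicate block, only the groups compared, group means, and each library left out. Figures used Python 3.11.15 and matplotlib 3.10.9. One neuroendocrine marker is not reported here.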

Additional observations from a re-analysis of the deposited data

Results flagged for a closer look

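AURKC in pRB- AZD2811 replicate 1, at 0.494 scaled FPKM, stood apart from the other 3 pRB- libraries, whose nearest value was 0.285. The gap was 0.948 of the range of the 4 libraries, above Dixon's 95% limit for 4 values. It rests on roughly 6 fragments, and chance alone marks about 1 in 20 such sets, of which 20 were examined. This library is also rich in RMRP and has the smallest scaling factor, 0.455; the part of these in the value was not tested.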

How the results depend on the processing

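The number of the 9 tested genes called lower with pRB over both AZD2811 states was 7. It became 0 with FPKM as deposited (1.18% of all genes called), 0 in the libraries low in RMRP (0.00832%) and 0 in the group-mean fit (0.0333%). Without the filter, where more genes were tested, it was 4 (3.73%). Leaving out single libraries gave 0 to 6, with 0.00832% to 15.2% of all genes called. It was 7 under the other 5 alternatives, including the replicate block, with 11.3% to 17% of all genes called. All values of these 7 genes stayed below 0 in the 17 alternatives. Deviations of same-numbered libraries had r from -0.456 to 0.474 over 6 pairs of groups, and from -0.114 to 0.541 without small RNA and histone genes, where 1 of the 6 was below 0.1; since not every r passed 0.1, numbers were not taken as pairs; the block otherwise moved the genes called relative to the mitotic mean from 1 to 2. That count was also 2 without the filter, where AURKC was called at 0.23 ± 0.08 (SE; limma, adjusted p = 0.0364) and 16128 of 19927 genes passed. With single libraries left out it was 1 to 2. In the other 6 comparisons 0 of the 9 were called under each alternative run. Depth limits AURKC most; the cause of the other lost calls was not tested.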
